A study of Homo sapiens with 6 samples.

Results

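The genes described here are the long intergenic non-coding RNAs of A549 cells that carry a LINC number for a name. A row of the deposited gene table was taken where its name was LINC followed by digits only and where its counts over the 6 libraries summed to at least 100. This gave 96 genes of 58302 rows. The table held 1898 rows with such a name, and 491 of those were detected while 1407 were at 0 throughout. The genes were thus chosen by their summed counts over both groups, and their levels are given as a description. LINC02600 (sum 103), LINC00910 (102) and LINC01569 (100) lay just inside the limit, and LINC01572 (99), LINC01619 (98) and LINC01293 (92) just outside it. The lowest sum of any of the 96 genes was 54 counts over the SNHG5 libraries and 34 over the vector libraries, so none was present in 1 group alone.

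RNA was sequenced from A549, an epithelial cell line derived from a human lung adenocarcinoma. The groups were 3 libraries of cells transfected with SNHG5, the host transcript of small nucleolar RNAs, and 3 libraries of cells transfected with the vector, in the same serum-supplemented medium. Both groups are transfections of 1 cell line, and the labels call the libraries biological replicates without naming separate cultures, so p-values measure the spread between these libraries. The comparison asks which transcripts differ when SNHG5 is overexpressed.

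Long intergenic non-coding RNAs are transcribed by RNA polymerase II from their own promoters, and most are capped, spliced and polyadenylated like messenger RNAs but carry no long conserved reading frame. Some act near the place where they are made, on a neighbouring gene, and others act on proteins or RNAs elsewhere in the nucleus or cytoplasm. Most are present at low levels and in few cell types, and several are studied in lung adenocarcinoma because their levels differ between tumours.

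SNHG5 was at 153, 126 and 62.9 CPM (counts scaled to 1000000 counts of the library) in the SNHG5 libraries, against 61.0, 101 and 55.1 CPM in the vector libraries. The groups overlapped, since SNHG5 library 3 lay below vector library 2. The log2 fold change was 0.66 ± 0.37 (SE; adjusted p = 0.746, edgeR quasi-likelihood test with Benjamini-Hochberg adjustment over 15631 genes). It was 0.95 without SNHG5 library 3 and between 0.39 (without SNHG5 library 1) and 0.97 (without vector library 2) with any 1 library left out. The libraries held 13378079 to 16823958 counts in the SNHG5 group and 14798193 to 16999604 in the vector group, so 3 counts, the limit that a count of 0 allows, corresponded to 0.175 to 0.218 CPM. Of the 6 epithelial line markers, all averaged over 1 CPM, with a summed level of 5091 to 8540 CPM in the SNHG5 libraries and 8061 to 10909 CPM in the vector libraries, while the alveolar type 2 markers SFTPA1, SFTPB and SFTPC were at 0. Of the leukocyte markers, CD68 was at 25.7 to 39.4 CPM in the SNHG5 libraries and 75.2 to 91.6 CPM in the vector libraries, while PTPRC and CD3E were at 0. The 3 endothelial markers averaged under 1 CPM each, with CDH5 at 0, and of the 4 fibroblast markers only COL1A1 passed 1 CPM (list sum 2.00 to 16.9 CPM against 6.95 to 14.3 CPM).

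SNHG5 library 3 stood apart from its group in these genes, and over all genes tested as well. In log2 CPM it was the SNHG5 library farthest from the mean of the others in 63.5% of the LINC genes. That share was 50.5% for other lncRNA genes and 56.0% for all genes tested. Across the 96 genes, the Spearman correlation of CPM was 0.944 between SNHG5 libraries 1 and 2, whereas library 3 reached 0.771 and 0.766 with them and 0.936 with vector library 3. These correlations run across genes of libraries that share 1 cell line and are a description. The counts of called genes and the fold changes that moved most with this library are therefore also given without it.

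The promoters of 5 of the genes described below are shown for reference, and their part in the levels was not tested. Each is the RefSeq window (GRCh38.p14) of 250 bases before to 50 after the annotated start, read 5′ to 3′ on the gene's strand. In LINC00941 (chr12:30795431-30795730, plus strand) and LINC01006 (chr7:156640486-156640785, minus strand), capitals mark the bases from the start onward. LINC00941 was the most abundant per kilobase of annotated exon (GENCODE 29, which held 95 of the 96 genes), and LINC01006 had the highest fold change. In LINC00473 (chr6:165987990-165988289, minus strand), known as a target of the factor CREB, capitals mark both copies of TGACG, the core of the CREB binding motif, in either orientation. In LINC01547 (chr21:44939864-44940163, minus strand) and LINC01534 (chr19:36687400-36687699, minus strand), capitals mark the stretch between the start of the LINC gene and the start of a protein-coding gene on the other strand.
LINC00941: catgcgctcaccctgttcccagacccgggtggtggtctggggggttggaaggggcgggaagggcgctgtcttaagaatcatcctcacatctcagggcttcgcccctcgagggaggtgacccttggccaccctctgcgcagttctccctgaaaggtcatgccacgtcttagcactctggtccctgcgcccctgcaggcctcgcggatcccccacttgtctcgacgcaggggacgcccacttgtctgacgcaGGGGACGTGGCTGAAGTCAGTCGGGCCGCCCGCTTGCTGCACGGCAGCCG
LINC01006: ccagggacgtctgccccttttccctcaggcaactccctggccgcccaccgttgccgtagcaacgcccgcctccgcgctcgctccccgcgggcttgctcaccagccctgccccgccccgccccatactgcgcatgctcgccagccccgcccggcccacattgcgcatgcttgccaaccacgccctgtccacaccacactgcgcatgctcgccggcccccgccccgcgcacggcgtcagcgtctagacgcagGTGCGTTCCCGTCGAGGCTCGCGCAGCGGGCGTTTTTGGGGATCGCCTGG
LINC00473: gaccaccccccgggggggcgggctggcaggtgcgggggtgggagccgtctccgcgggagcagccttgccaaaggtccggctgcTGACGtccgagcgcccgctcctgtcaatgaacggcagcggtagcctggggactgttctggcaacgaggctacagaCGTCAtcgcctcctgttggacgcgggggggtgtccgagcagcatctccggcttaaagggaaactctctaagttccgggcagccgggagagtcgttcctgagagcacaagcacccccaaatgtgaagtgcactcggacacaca
LINC01547: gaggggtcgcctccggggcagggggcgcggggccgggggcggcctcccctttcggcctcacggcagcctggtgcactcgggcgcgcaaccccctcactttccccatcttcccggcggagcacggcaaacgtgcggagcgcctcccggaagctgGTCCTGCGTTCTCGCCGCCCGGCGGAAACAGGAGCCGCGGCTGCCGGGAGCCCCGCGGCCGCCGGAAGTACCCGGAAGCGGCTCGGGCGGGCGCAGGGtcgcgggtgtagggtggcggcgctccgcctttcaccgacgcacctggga
LINC01534: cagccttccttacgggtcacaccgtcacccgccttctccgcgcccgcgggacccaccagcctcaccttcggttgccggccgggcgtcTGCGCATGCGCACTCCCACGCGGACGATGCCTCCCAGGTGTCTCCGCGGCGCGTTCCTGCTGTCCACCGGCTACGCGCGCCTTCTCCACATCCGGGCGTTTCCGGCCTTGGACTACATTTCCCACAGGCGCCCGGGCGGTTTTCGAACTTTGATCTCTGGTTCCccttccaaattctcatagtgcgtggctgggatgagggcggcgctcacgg

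The 96 genes together took a small and uneven share of the libraries. They held 0.117%, 0.108% and 0.0786% of all counts in the SNHG5 libraries, against 0.0883%, 0.0843% and 0.0759% in the vector libraries. SNHG5 libraries 1 and 2 were above all vector libraries, and SNHG5 library 3 lay among them. The mean was 0.101% ± 0.0202 in the SNHG5 group and 0.0828% ± 0.00634 in the vector group (SD, n = 3 each), a difference of 0.0186 percentage points. Without LINC00707, the most abundant gene, the difference was 0.0110 percentage points. The 41 genes that overlap no other annotated row gave a difference of 0.0123 percentage points.

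**Figure D1:**
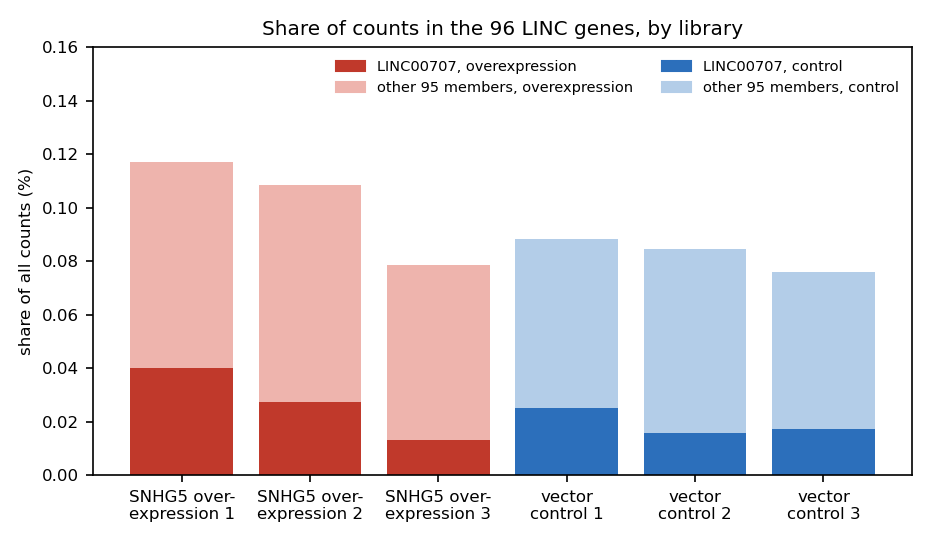
Share of all counts (%) in the 96 LINC genes for each library, with the SNHG5 libraries on the left and the vector libraries on the right. The dark part of each bar is LINC00707 and the light part is the other 95 genes. Bars of SNHG5 libraries 1 and 2 reach 0.117% and 0.108%, and SNHG5 library 3, at 0.0786%, lies within the vector range of 0.0759% to 0.0883%.

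Of the 86291 counts in these genes, LINC00707 held 25.1%, the 5 most abundant genes 41.9% and the 10 most abundant 55.4%. Above 10 CPM there were 22 genes, between 5 and 10 CPM 15, and below 5 CPM 59, with a median of 3.29 CPM. The median over 713 other lncRNA genes with the same sum of counts was 2.62 CPM, and over 12271 protein-coding genes 30.1 CPM. In only 2 of the 96 genes did a library hold no count. By the files' gene types, 70 of the 96 are lincRNA, 11 processed transcript, 4 antisense and 2 bidirectional promoter lncRNA, 8 carry a pseudogene type, and LINC00473 has none.

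LINC00707 (chromosome 10, 6779598 to 6842906, plus strand) was at 403, 267 and 129.9 CPM in the SNHG5 libraries, against 260.4, 151 and 179 CPM in the vector libraries. The groups overlapped, with the highest and the lowest of the 6 values both in the SNHG5 group. Its log2 fold change was 0.44 ± 0.40 (SE; edgeR adjusted p = 0.776), and it was 0.76 without SNHG5 library 3, 0.01 without SNHG5 library 1, 0.69 without vector library 1 and 0.28 without vector library 2. Per length, as CPM per kilobase of annotated exon, it averaged 27.1 ± 13.9 in the SNHG5 group and 20.02 ± 5.78 in the vector group (SD, n = 3 each).

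LINC00941 (chromosome 12, 30795681 to 30802711, plus strand), studied in lung adenocarcinoma and as a repressor of keratinocyte differentiation, was at 56.7, 56.0 and 22.1 CPM in the SNHG5 libraries, against 37.1, 31.0 and 27.5 CPM in the vector libraries. SNHG5 libraries 1 and 2 were the highest of the 6 and SNHG5 library 3 the lowest. The log2 fold change was 0.49 ± 0.36 (SE; edgeR adjusted p = 0.749), with 0.82 without SNHG5 library 3, 0.29 without SNHG5 library 1 and 0.30 without SNHG5 library 2. By the exon lengths of GENCODE 29, known for 95 of the 96 genes, it came first per length. Its level was 33.2 ± 14.6 CPM per kilobase in the SNHG5 group and 23.5 ± 3.58 in the vector group. Those means differed by less than the SD of the SNHG5 group, and so did those of LINC00707. The authors' FPKM values (levels per length on their own gene lengths) gave LINC00707 130, 89.5 and 43.2 in the SNHG5 libraries. In the vector libraries they were 82.2, 50.6 and 55.8, so its place in this order depends on the lengths used.

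LINC00973 had the same shape at a lower level, with 32.5, 40.6 and 7.33 CPM in the SNHG5 libraries and 19.8, 28.6 and 8.19 CPM in the vector libraries. Library 3 was the lowest in each group. LINC01234, which is studied as a tumour-associated transcript, was steadier, at 44.8, 52.5 and 38.0 CPM in the SNHG5 libraries and 40.0, 42.5 and 37.8 CPM in the vector libraries. LINC00963, known from prostate cancer lines, was at 44.8, 48.1 and 28.8 CPM in the SNHG5 libraries and 35.3, 41.8 and 37.5 CPM in the vector libraries. In both, the groups overlapped.

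LINC00511, which is raised in lung cancers, was at 41.4, 47.7 and 21.9 CPM in the SNHG5 libraries and 34.7, 42.9 and 27.2 CPM in the vector libraries. LINC01578, better known as CHASERR, lies upstream of the chromatin remodeller CHD2 and holds its expression down in cis. It was at 34.6, 37.6 and 18.6 CPM in the SNHG5 libraries and 26.5, 44.1 and 18.0 CPM in the vector libraries, and CHD2 was at 269, 350.2 and 124 CPM against 239, 122 and 171 CPM. Library 3 was low for LINC01578 in both groups, whereas CHD2 was lowest in vector library 2 and SNHG5 library 3. LINC01278 was at 22.6, 19.9 and 26.7 CPM in the SNHG5 libraries and 16.3, 15.7 and 22.5 CPM in the vector libraries, with 1 vector library inside the SNHG5 range.

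**Figure D2:**
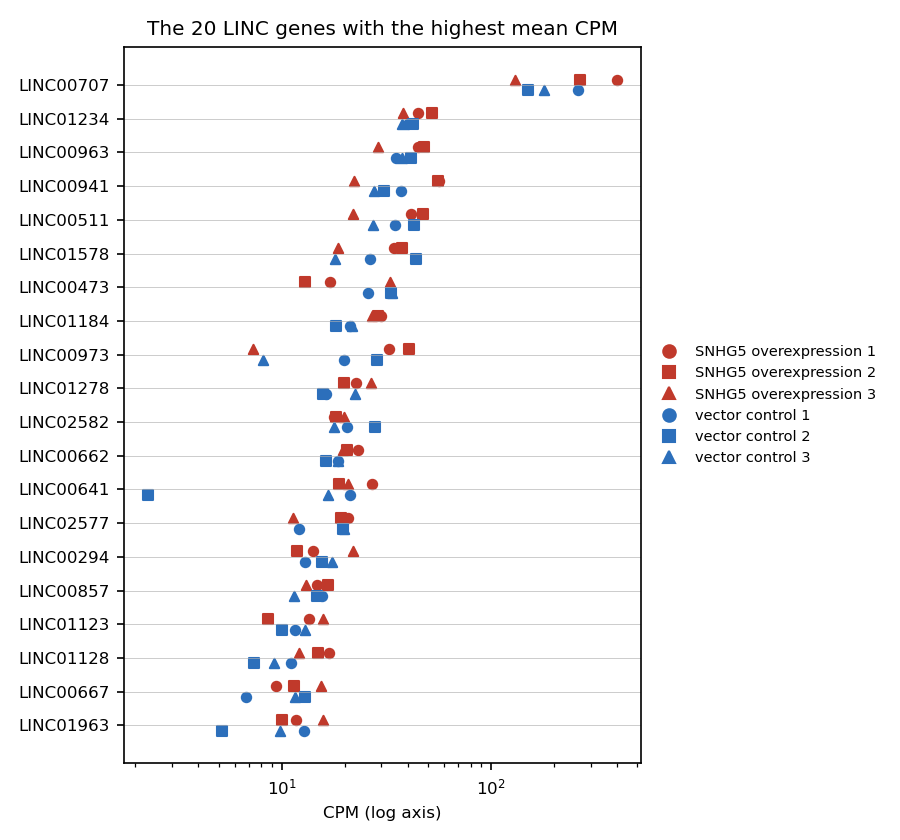
CPM on a log axis for the most abundant LINC genes, 1 line per gene in order of mean CPM, with SNHG5 libraries drawn above vector libraries and the marker shape giving the library number. LINC00707 stands alone at the top, at 129.9 to 403 CPM, and in LINC00941 and LINC00973 SNHG5 library 3 lies well below SNHG5 libraries 1 and 2.

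None of the 96 genes passed the test for a difference between SNHG5 and vector cells. At an adjusted p below 0.05 in edgeR, 0 genes were higher and 0 lower, beside a background of 0.0256% of all genes tested called higher and 0.102% called lower (0.128% in either direction). All 96 were among the 15631 genes tested. The lowest adjusted p was 0.503, for LINC01138. DESeq2 called 0 of the 96 beside a background of 1.45% and limma-voom 0 beside 0.147%, and edgeR with same-numbered libraries as a block called 0 beside 0.467%. At an unadjusted p below 0.05 edgeR gave 6 genes higher, beside a background of 2.09%, and 2 lower, beside 4.41%, or 8 in either direction beside 6.49%. At the same limit DESeq2 gave 7 beside 6.7% and limma-voom 6 beside 6.74%. The SE of the log2 fold change had a median of 0.36 over the genes and reached 1.11. Differences well above the SE were not called either with 3 libraries a group. Examples are LINC01138 at -0.99 ± 0.30 (SE; edgeR adjusted p = 0.503) and LINC01006 at 1.94 ± 0.64 (SE; edgeR adjusted p = 0.576). The lack of calls therefore does not exclude differences of such sizes.

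The log2 fold changes ran from -0.99 to 1.94. For 73 genes the size was under 0.5, and for 4 it was over 1. Above 0 lay 66 genes, or 68.8%, and 30 lay below, with a median of 0.12. The 709 other lncRNA genes that were tested had a median of 0.13 with 60.9% above 0, protein-coding genes had a median of -0.02 with 47.1% above 0, and the median over all genes tested was 0.01. The median of the LINC genes was thus close to that of other lncRNA genes.

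In 10 genes all SNHG5 libraries were above all vector libraries, beside a background of 6.04% of all genes tested, and in 4 all were below, beside a background of 7.52%. Of the 10, LINC01184 (chromosome 5, 127940426 to 128083172, minus strand) was the most abundant, at 29.9, 28.9 and 27.2 CPM in the SNHG5 libraries and 21.3, 18.3 and 21.7 CPM in the vector libraries. Its log2 fold change of 0.49 ± 0.19 (SE) had the smallest error of all 96 and an edgeR adjusted p of 0.733. The 3 values of each group lay close together. In 23 of the 96 every same-numbered SNHG5 library was above its vector library, beside a background of 17.1%, and in 10 every one was below, beside 17.7%. As shares these were 24.0% and 10.4% of the LINC genes, close to the 23.3% and 13.3% of other lncRNA genes.

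LINC02035 had the highest fold change of the 10. It was at 6.86, 7.71 and 6.29 CPM in the SNHG5 libraries and 4.73, 2.95 and 3.57 CPM in the vector libraries, a log2 fold change of 0.89 ± 0.28 (SE; edgeR adjusted p = 0.549). LINC02210 was at 9.83, 10.0 and 6.40 CPM in the SNHG5 libraries and 5.80, 4.39 and 5.23 CPM in the vector libraries. It shares 2.68% of its exon bases with the readthrough gene LINC02210-CRHR1 on chromosome 17, which was at 0 counts in all 6 libraries. LINC01128 was at 16.8, 14.9 and 12.1 CPM in the SNHG5 libraries and 11.1, 7.41 and 9.18 CPM in the vector libraries. LINC00674 and LINC01569, with log2 fold changes of 0.68 each, were under 2 CPM in every library. The other 4 were LINC00662 and, named after their values were seen, LINC02228, LINC02561 and LINC01881, with log2 fold changes between 0.24 and 0.64. Among the 10, SNHG5 library 3 was the lowest of its group in 7 and the highest in LINC00674 and LINC01881.

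Of the 4 genes below, LINC01138 had the most negative value. LINC01138, which is known to bind and stabilise the arginine methyltransferase PRMT5 in liver cancer cells, was at 1.52, 1.31 and 1.57 CPM in the SNHG5 libraries and 2.60, 3.21 and 2.96 CPM in the vector libraries. The log2 fold change was -0.99 ± 0.30 (SE; edgeR adjusted p = 0.503). It spans 148290889 to 148519604 on the minus strand of chromosome 1, where 16 other annotated rows overlap it and 21.2% of its exon bases are shared, so its counts are uncertain. One of those rows, AC245100.2 on the other strand, had 86, 51 and 48 counts in the SNHG5 libraries and 46, 35 and 38 in the vector libraries. Its sums with LINC01138, 111, 69 and 75 counts in the SNHG5 libraries and 85, 84 and 86 in the vector libraries, overlapped between the groups. Another row on the other strand, AC245100.8, had 10, 6 and 9 counts in the SNHG5 libraries and 8, 27 and 13 in the vector libraries. With it the sums were 35, 24 and 36 counts in the SNHG5 libraries and 47, 76 and 61 in the vector libraries, and did not overlap. LINC01232 was at 1.40, 0.946 and 1.51 CPM in the SNHG5 libraries and 2.40, 1.77 and 2.77 CPM in the vector libraries. LINC01085 was at 5.52, 6.91 and 6.29 CPM in the SNHG5 libraries and 8.66, 7.15 and 11.7 CPM in the vector libraries, and LINC01836 was at 4.55, 5.39 and 7.28 CPM against 7.93, 8.00 and 7.76 CPM. In the last pair the gap between the groups was narrow, 6.91 against 7.15 CPM in LINC01085.

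**Figure D3:**
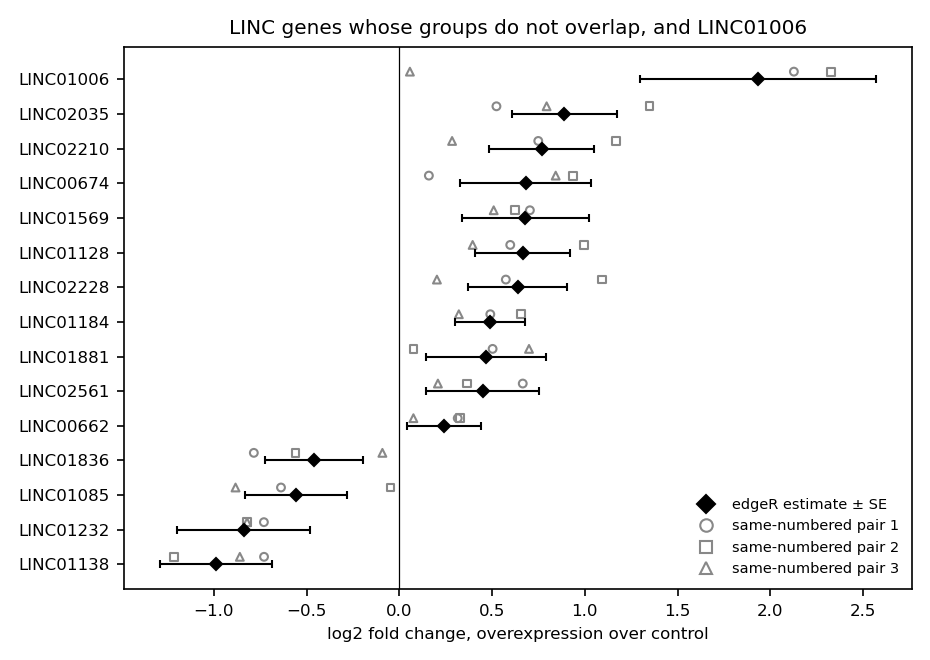
Log2 fold change (SNHG5 over vector) of the 14 LINC genes whose groups do not overlap, and of LINC01006. Diamonds are edgeR estimates with bars of 1 SE, and open symbols are the 3 same-numbered pairs of libraries. LINC01006 has the highest estimate, 1.94, with pairs at 2.13, 2.33 and 0.06, and LINC01138 the lowest, -0.99.

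The highest fold change of all 96 was that of LINC01006, which is named here because of that value. LINC01006 (chromosome 7, 156472196 to 156640654, minus strand) was at 7.71, 6.77 and 1.22 CPM in the SNHG5 libraries, against 1.67, 1.25 and 1.17 CPM in the vector libraries. SNHG5 libraries 1 and 2 stood far above the other 4 libraries, which lay within 1.17 to 1.67 CPM. The log2 fold change was 1.94 ± 0.64 (SE; edgeR adjusted p = 0.576). Without SNHG5 library 3 the edgeR estimate was 2.40 ± 0.29 (SE; adjusted p = 0.0228), and LINC01006 was then the single LINC gene called, beside a background of 1.03% of 15964 genes. Without that library 21 of the 96 genes had an unadjusted p below 0.05, beside a background of 21.2%. Dropping each other library in turn left the estimate between 1.54 and 2.11, with an adjusted p of 0.694 or more.

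The spread inside the SNHG5 group came mainly with library 3. In 15 of the 96 genes, or 15.6%, SNHG5 library 3 was more than 2-fold below both SNHG5 libraries 1 and 2, whereas this held for 5.51% of all genes tested. It was more than 2-fold above both in 3 genes, or 3.13%, compared with 5.85% of all genes tested. These differences in shares were not tested, and the 2-fold shares were not counted for other lncRNA genes. The LINC genes had a lower median level than all genes tested, 3.29 against 20.4 CPM. The range of log2 CPM within the SNHG5 group was over 1 in 31.3% of the LINC genes and 30.2% of other lncRNA genes. Over all genes tested it was over 1 in 25.1%, so a wide spread was not particular to the LINC genes. LINC00707, LINC00941, LINC00973, LINC00467 and LINC01006 belong to the 15. SNHG5 itself was also lowest in library 3 of its group, and the part of the SNHG5 level in these values was not tested.

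Of the 15, LINC02057 was at 14.1, 13.5 and 1.75 CPM in the SNHG5 libraries and 8.20, 3.67 and 3.57 CPM in the vector libraries. LINC02535, which lies 270.8 kb from SNHG5 on chromosome 6, was at 11.0, 11.4 and 2.10 CPM in the SNHG5 libraries and 6.33, 4.26 and 2.65 CPM in the vector libraries. LINC01322 was at 3.64, 5.90 and 0.640 CPM in the SNHG5 libraries and 2.40, 0.853 and 1.05 CPM in the vector libraries. In each of these, chosen after their values were seen, SNHG5 library 3 was below all vector libraries while SNHG5 libraries 1 and 2 were above them. LINC00886, chosen in the same way, was at 9.04, 8.08 and 2.503 CPM in the SNHG5 libraries and 4.20, 2.62 and 3.08 CPM in the vector libraries. LINC02086 and LINC00205, also chosen after their values were seen, went the other way. LINC02086 was at 0.971, 2.04 and 8.15 CPM in the SNHG5 libraries and 2.47, 4.53 and 6.90 CPM in the vector libraries, and LINC00205 was at 2.18, 1.60 and 4.54 CPM against 2.13, 1.44 and 2.89 CPM. The first principal component of the 96 genes, which held 51.0% of their variance, placed SNHG5 libraries 1 and 2 at 0.42 and 0.47, SNHG5 library 3 at -0.66, and the vector libraries at 0.14, 0.03 and -0.38. On that axis library 3 was the lowest of each group.

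**Figure D4:**
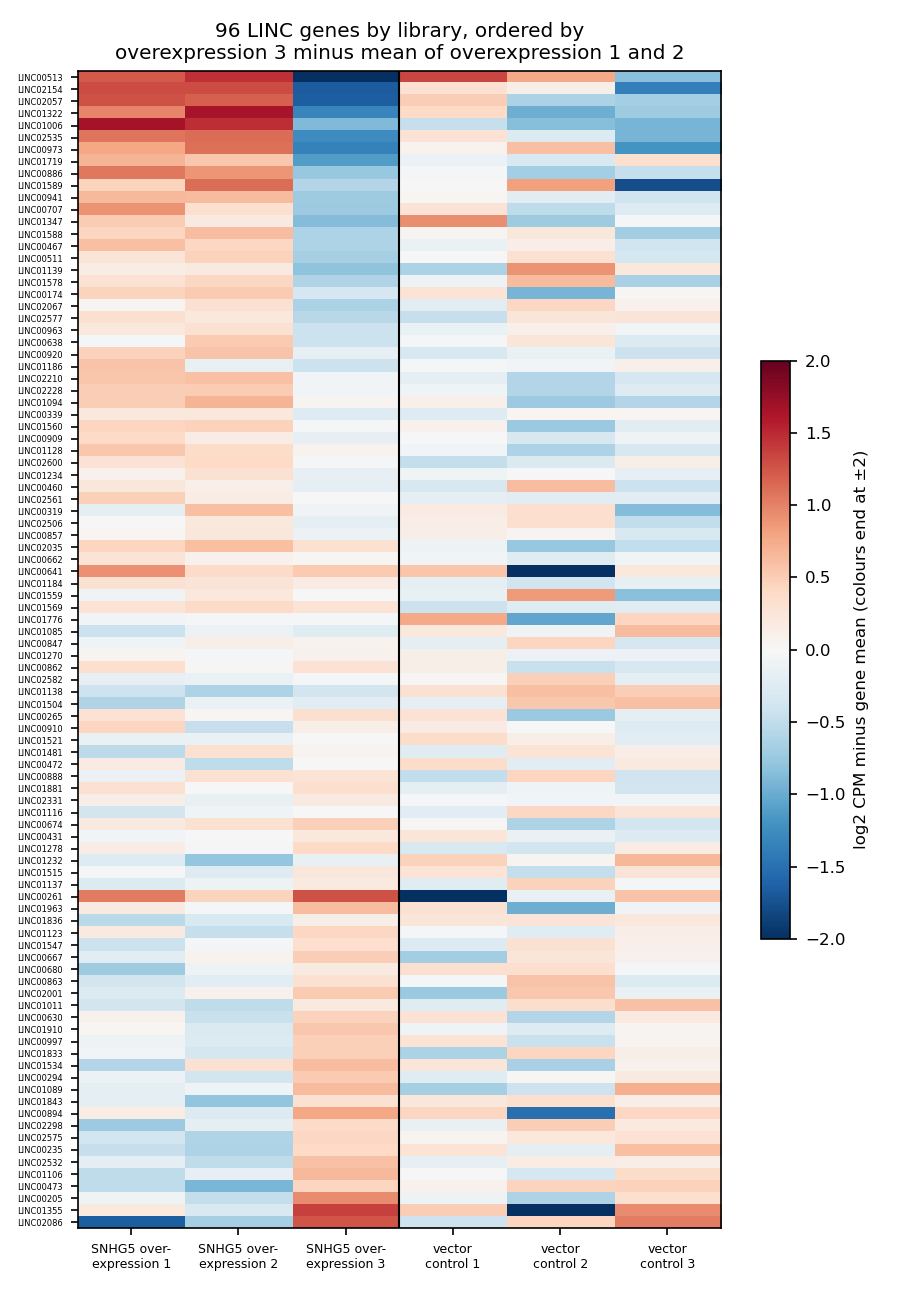
Log2 CPM minus the gene's mean over the 6 libraries for all 96 LINC genes, with SNHG5 libraries in the left columns and vector libraries in the right ones. Genes are ordered by SNHG5 library 3 minus the mean of SNHG5 libraries 1 and 2. At one end, SNHG5 library 3 is blue where libraries 1 and 2 are red, as in the 15 genes in which it was more than 2-fold below both, and vector library 3 is often blue beside it.

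The widest ranges within a group were in LINC00641, LINC00513, LINC01355, LINC00261 and LINC02154. LINC00641 was at 27.2, 18.8 and 20.8 CPM in the SNHG5 libraries and 21.3, 2.30 and 16.7 CPM in the vector libraries. LINC01355 was at 1.82, 1.24 and 4.25 CPM in the SNHG5 libraries and 2.27, 0.131 and 3.14 CPM in the vector libraries. In both, vector library 2 was far below the rest. The LINC01355 value there, 0.131 CPM, lay under the 0.197 CPM that a count of 0 allows in that library. In the same library the nuclear lncRNAs MALAT1 and NEAT1 were at 28.1 and 23.4 CPM, where MALAT1 was at 476, 118 and 409.7 CPM in the SNHG5 libraries and 410.2 and 372 CPM in vector libraries 1 and 3, and NEAT1 at 213, 136 and 102 CPM in the SNHG5 libraries and 203 and 160 CPM in vector libraries 1 and 3. The share of mitochondrial counts was also lowest there, at 2.57%, compared with 3.80% to 6.16% in the SNHG5 libraries and 4.60% and 5.31% in the other vector libraries. The part of RNA handling in these values was not tested.

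LINC00513, reported as a promoter of interferon signalling in lupus, was at 4.49 and 5.31 CPM in SNHG5 libraries 1 and 2 and had no count in library 3, against 4.86, 3.21 and 0.985 CPM in the vector libraries. Its log2 fold change of 0.11 had an SE of 1.11, the largest of the 96, and it changed sign with 1 library left out (-0.44 without SNHG5 library 2, 0.70 without SNHG5 library 3). LINC02154 was at 2.25, 2.26 and 0.175 CPM in the SNHG5 libraries and 1.07, 0.918 and 0.246 CPM in the vector libraries. Library 3 was again the lowest of each group in both genes.

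LINC00261, a transcript beside the endoderm factor FOXA2 that takes part in its expression during endoderm differentiation, had 37, 20 and 46 counts in the SNHG5 libraries and 0, 14 and 26 counts in the vector libraries. The annotated row AL121722.1 shares 86.1% of the exon bases of LINC00261 on the same strand and had 0, 0 and 24 counts in the SNHG5 libraries, against 56, 18 and 5 counts in the vector libraries. LINC00261 had no count in vector library 1, where AL121722.1 was highest, and AL121722.1 had none in SNHG5 libraries 1 and 2. Their sums, 37, 20 and 70 counts in the SNHG5 libraries and 56, 32 and 31 counts in the vector libraries, overlapped between the groups. The fold change of LINC00261 alone, 1.33 on the log2 scale (0.75 without vector library 1 and 2.19 without vector library 3), and that of AL121722.1, -1.82, therefore cannot be told apart from the way shared reads were divided. FOXA2 averaged 26.03 ± 10.8 CPM in the SNHG5 group and 41.1 ± 5.46 CPM in the vector group (SD, n = 3 each; log2 fold change -0.66, edgeR adjusted p = 0.746).

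Some of the genes have a known role. Of 15 listed LINC genes studied in lung cancer, 8 were among the 96, and 0 rose and 0 fell in the edgeR test, beside the background of 0.0256% higher and 0.102% lower over all genes, so the count says nothing particular about the list. LINC00473, induced by CREB and raised in lung cancers without the kinase LKB1, which A549 lacks, was the one with the most negative value. It was at 17.1, 12.9 and 32.9 CPM in the SNHG5 libraries, against 25.8, 33.3 and 33.6 CPM in the vector libraries. SNHG5 libraries 1 and 2 were the lowest of the 6 and SNHG5 library 3 lay inside the vector range. Its log2 fold change was -0.56 ± 0.35 (SE; edgeR adjusted p = 0.749), and it was -1.05 without SNHG5 library 3 (adjusted p = 0.0971) and -0.31 without SNHG5 library 2. LINC00473 overlaps PDE10A, whose log2 fold change was 0.28 (edgeR adjusted p = 0.800). LINC00857 was at 14.7, 16.7 and 13.2 CPM in the SNHG5 libraries and 15.6, 14.8 and 11.5 CPM in the vector libraries, and LINC00472 at 4.25, 2.62 and 3.78 CPM against 4.93, 3.28 and 4.37 CPM. LINC00941 and LINC00511 are given above, and the remaining genes of the list, LINC01116, LINC01833 and LINC00460, averaged under 5 CPM.

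Of 12 listed LINC genes with a reported microprotein, 1 was among the 96, and it did not pass the test. LINC00467, which encodes a small protein of the mitochondrial ATP synthase in colorectal cancer cells, was at 9.83, 8.59 and 4.13 CPM in the SNHG5 libraries and 5.86, 7.02 and 4.87 CPM in the vector libraries. Of 17 listed with another role, 8 were among the 96, and 0 rose and 0 fell, beside the same background. In that list, LINC00662 was at 23.2, 20.6 and 19.7 CPM in the SNHG5 libraries and 18.7, 16.4 and 18.7 CPM in the vector libraries, and LINC00339 at 9.10, 9.03 and 6.52 CPM against 6.53, 8.07 and 8.01 CPM. LINC01137, known as an inhibitor of TGF-beta signalling and chosen after its values were seen, was at 3.46, 3.93 and 4.83 CPM in the SNHG5 libraries and 3.53, 5.84 and 4.13 CPM in the vector libraries, and the groups overlapped.

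Position sets a limit on these counts, since the library kit does not mark the strand. Of the 96 genes, 41 overlap no other annotated row and 55 do. In 40, exon bases are shared with another row, and in 8 the shared part is over 20% of the exons. Examples are LINC01089 with RHOF, AC084018.1 and AC084018.2 together (51.3%), LINC01270 with LINC01271 (44.2%) and LINC00847 with HEIH (21.0%). A protein-coding gene overlaps 17 of the genes and lies within 10 kb of 25 others, and the median distance to the nearest one was 14.9 kb. The genes are spread over 22 chromosomes, with 11 on chromosome 1 and at most 6 on any other.

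Of the 96, 12 have a protein-coding start on the other strand within 1 kb. In LINC00909, LINC01006, LINC00894 and LINC01481 the annotated starts cross, so that the LINC gene and its partner overlap there. In the others the starts lie apart, the arrangement of a shared promoter. LINC01184 starts 594 bases from SLC12A2, the sodium, potassium and chloride cotransporter, which was at 74.5, 75.8 and 92.9 CPM in the SNHG5 libraries and 71.6, 75.3 and 69.2 CPM in the vector libraries. LINC01006 starts 373 bases from RNF32 and overlaps it, and RNF32 was at 1.40, 2.04 and 1.63 CPM in the SNHG5 libraries and 1.33, 1.05 and 1.29 CPM in the vector libraries. RNF32 did not have the gap between SNHG5 libraries 1 and 2 and the rest that LINC01006 had.

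LINC01547 starts 97 bases from FAM207A, and LINC01534 starts 163 bases from the zinc finger gene ZNF567, across the stretches in capitals above. LINC01547 was at 2.00, 2.69 and 3.49 CPM in the SNHG5 libraries and 2.27, 3.41 and 2.96 CPM in the vector libraries, and FAM207A at 12.4, 17.6 and 16.9 CPM against 22.4, 25.97 and 18.1 CPM. FAM207A was lower in every SNHG5 library (log2 fold change -0.50, edgeR adjusted p = 0.746) while LINC01547 overlapped between groups at -0.08. LINC01534 was at 1.03, 2.04 and 2.56 CPM in the SNHG5 libraries and 1.93, 0.984 and 1.72 CPM in the vector libraries, and ZNF567 at 27.4, 25.8 and 23.1 CPM against 28.99, 9.18 and 24.9 CPM. Their log2 fold changes were 0.28 ± 0.45 and 0.27 ± 0.39 (SE), and both were lowest among vector libraries in library 2. Among the SNHG5 libraries LINC01534 was lowest in library 1 and ZNF567 in library 3.

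Over the 60 genes whose nearest protein-coding gene was tested and did not overlap, the log2 fold changes of the LINC gene and its neighbour had a Spearman correlation of 0.28 and a Pearson correlation of 0.29. Over all 74 tested neighbours, overlapping ones included, these were 0.23 and 0.13. The points come from the same 6 libraries and the relation is weak. No nearest protein-coding gene passed the test, beside a background of 0.128% of all genes tested. None belongs to a list of 46 interferon-response genes, whose median log2 fold change was -2.21 with 5 called lower by edgeR. With so few genes called and so short a list, neither count says anything particular about the LINC genes.

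**Figure D5:**
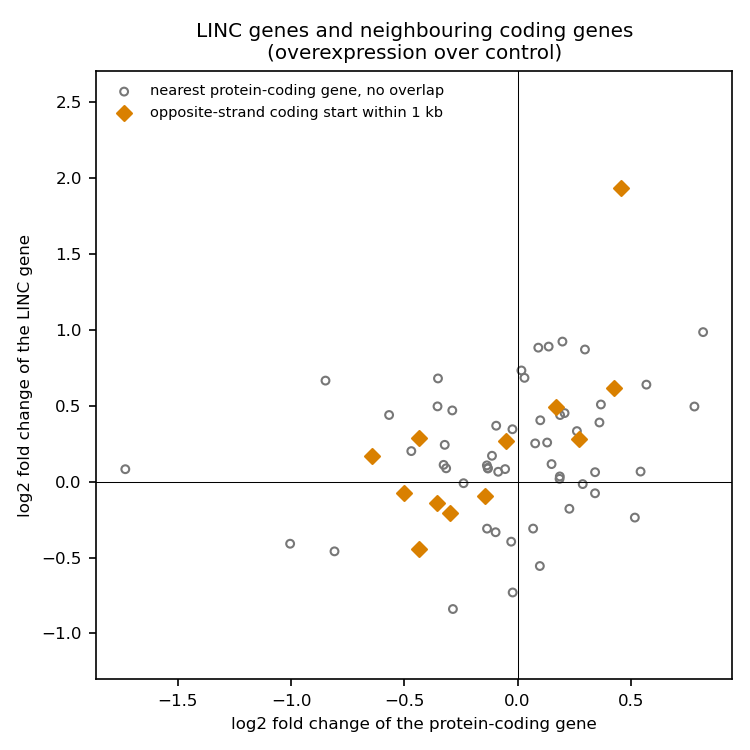
Log2 fold change (SNHG5 over vector) of each LINC gene on the vertical axis against that of its nearest non-overlapping protein-coding gene (open circles, 60 genes) or of the protein-coding gene that starts on the other strand within 1 kb (diamonds, 12 pairs, which can cover the circle of the same gene). The points scatter widely around 0 on both axes, and LINC01006 lies highest at 1.94 with RNF32 at 0.46.

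RefSeq promoter windows were matched to 60 of the 96 genes by a start within 1 kb. Their GC content had a median of 62.0%, against 58.3% over 27305 promoters. On both strands, TGACG was found in 18 of the 60 windows (30.0%), compared with 25.01% of all promoters, and the full CREB motif TGACGTCA in 2 (3.33%), those of LINC00630 and LINC00265, compared with 1.98%. TGACG is part of TGACGTCA, so the counts overlap. In LINC00473 the copies of TGACG shown above start 167 and 92 bases before the gene's start. The AP-1 motif TGANTCA was found in 4 windows (6.67%), compared with 7.76%. The core of the interferon response motif, GAAA followed by any 2 bases and GAAA again, was found in 1 window (1.67%), that of LINC01085, compared with 3.65%. These are matches of letters, and LINC00630, named after its values were seen, at 4.13, 2.84 and 5.41 CPM in the SNHG5 libraries and 4.80, 2.56 and 4.50 CPM in the vector libraries, overlapped between the groups.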

How the data were processed

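RNA-seq of A549 cells was deposited as 1 gene table for 3 SNHG5 and 3 vector libraries. Per the labels' protocols, RNA was extracted on silica columns and libraries were made with Illumina's paired-end TruSeq RNA kit, which does not mark the strand. HISAT2, FastQC and the genome build GRCh38 are listed in the submitters' processing notes. Which program counted the reads, with which strand setting and treatment of overlapping genes, is not given in the sources used here. Raw counts of each gene were deposited as whole numbers. The authors also deposited FPKM values per gene and library, which were used only as a check of gene length. Those lengths had a median ratio of 1.24 to the exon bases of GENCODE 29, which were used for levels per length.

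The LINC genes and the lists of genes with known roles were chosen with earlier results of these data known. The test was that of edgeR 4.0.16 under R 4.3.3 (TMM scaling, filterByExpr, robust quasi-likelihood fit, two-sided, Benjamini-Hochberg adjustment over 15631 genes, threshold 0.05). DESeq2 1.42.0 and limma-voom (limma 3.58.1) were alternatives, 12 in all with other scalings, filters, the replicate block and each library left out. The common biological variation was 30.8%. The fitting script was also tested on simulated counts.

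Replicate numbers come from the labels. Deviations from the group mean of same-numbered libraries correlated at 0.35, 0.16 and 0.29, and those of differently numbered libraries at -0.34 to 0.12. No methods text states a pairing, so the reported fold changes come from the fit without the replicate block. Their SEs and p-values therefore do not use the pairing. The fit with the block is one of the alternatives, and its common biological variation was 26.2%.

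Genes were named where they passed the test, had 1 of the 5 highest or 5 lowest fold changes among genes whose groups do not overlap (4 were lower), 1 of the 10 highest levels or 1 of the 5 widest ranges within a group, were among the 5 most abundant genes of a role list, or lay at the limit of 100 counts. Every other LINC gene was named after its values were seen. Positions and types come from the file and, where it gives none, from GENCODE 29, which held 95 of the 96 genes. Promoter windows come from RefSeq (GRCh38.p14). The limit of 3 counts covers counting error only. Within each group, every pair of libraries differed by more than counting noise.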

Additional observations from a re-analysis of the deposited data

How the results depend on the processing

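Across the 12 alternatives, the number of LINC genes called stayed at 0 in each direction except without SNHG5 library 3, where 1 was higher (range 0 to 1 with 1 library left out). Over all genes, the 4 higher calls became 22 with DESeq2 and 0 to 20 with 1 library left out. The 16 lower calls became 240 with DESeq2, 72 with no filter on low counts, 69 with the replicate block that pairs the libraries, and 0 to 144 with 1 library left out. With the block no LINC gene was called, and SNHG5 had a log2 fold change of 0.61 (edgeR adjusted p = 0.545). The median log2 fold change of the LINC genes, 0.12, was 0.20 over the 41 that overlap no other row and 0.11 to 0.17 with 1 library left out. The difference in the share of counts was 0.0107 to 0.0300 percentage points with 1 library left out. For the 31 LINC genes named by rule, all 372 values under the alternatives stayed on the same side of the threshold, and 7 genes, LINC00511, LINC00513, LINC00857, LINC00910, LINC00963, LINC01355 and LINC01578, changed sign in at least 1. LINC01006, named for its value, is not among the 31, and it crossed the threshold without SNHG5 library 3 (edgeR adjusted p = 0.0228). Over the 59 LINC genes with a sum of 200 counts or more, 0 were called. At these depths a count of 0 in a library still allows a level of up to 0.175 to 0.218 CPM, depending on the library.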

Other observations

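Just under the limit of 100 counts, LINC01619 had 41, 33 and 11 counts in the SNHG5 libraries and 7, 0 and 6 in the vector libraries, and LINC01293 had 38, 26 and 3 counts in the SNHG5 libraries and 20, 2 and 3 in the vector libraries. In both, SNHG5 libraries 1 and 2 were above SNHG5 library 3. LINC01572 had 14, 17 and 19 counts in the SNHG5 libraries and 25, 7 and 17 in the vector libraries, with no such gap.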
